A study of Homo sapiens and Mus musculus with 15 samples.

Results

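The immediate early transcription factors were chosen by symbol and not by their values: FOS, FOSB, FOSL1, JUN, JUNB, JUND, EGR1, IER2, ATF3 and KLF2, 10 genes of 61071 rows in the human table, and the same 10 symbols in title case among 56832 rows of the mouse table and 32285 genes of the single-cell matrices. Bulk RNA-seq covered ARPE-19, an established human retinal pigment epithelium (RPE) line, as 3 libraries of cells overexpressing HA-tagged YAP on a 1.5 kPa gel, 3 of control vector cells on the same gel and 3 of control vector cells on plastic. The mouse bulk libraries were 2 from the RPE of old C57BL/6J mice given TRULI, an inhibitor of the LATS kinases that restrain YAP, and 2 from old mice without it. Single-cell RNA-seq (scRNA-seq) of C57BL/6J RPE and adjoining choroid gave 1 library at 24 months and 1 at 3 months. The numerical ages of the mice in the bulk libraries, the vector of YAP-HA and whether its cells came from 1 clone are not given in the sources used here. The 3-month library carries the condition label of an old sample but the title and age label of 3 months, and was grouped by the latter.

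Immediate early transcription factors are genes that a cell switches on within minutes of a growth factor, a mechanical stimulus or a stress, from factors already present and without new protein synthesis. They are often read as a record of recent signalling, and their transcripts are short-lived. FOS, FOSB and FOSL1 are leucine zipper proteins that pair with JUN, JUNB or JUND to form the AP-1 factor, which binds the sequence TGANTCA. EGR1 is a zinc finger factor, IER2 a nuclear regulator, ATF3 a stress-induced leucine zipper factor related to the AP-1 proteins, and KLF2 a zinc finger factor best known from endothelial cells under flow. Enzymatic dissociation of tissue at body temperature is itself known to induce these genes.

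The ARPE-19 line lacked defining RPE transcripts: RPE65 and TTR were listed at 0 TPM in all 3 groups, and TYR averaged at most 0.06 TPM. MITF averaged 10.5 TPM in YAP-HA cells, 3.70 TPM in control cells on the gel and 13.1 TPM in control cells on plastic. YAP1 averaged 2367 ± 139 TPM in YAP-HA cells, against 66.0 ± 10.8 TPM in control cells on the gel (SD, n = 3 each). This checks the transgene and not the substrate labels. Of 5 known YAP targets, 4 rose with YAP-HA on the gel and ANKRD1 fell (−0.79 ± 0.07, adjusted p = 1.77e-05). Values are TPM, a transcript abundance scaled to transcript length and library total, and differences were taken after adding 1 TPM and log2 transformation, so the change of low genes such as FOS is understated. A change was called at a Benjamini-Hochberg adjusted p under 0.05 in limma, over 14606 human or 15132 mouse genes. The labels do not say whether replicates are separate cultures or animals, so the tests measure the spread between these libraries.

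The 10 genes are compact, except for ATF3, which spans 55444 bases. By GENCODE v29 on GRCh38 their median length is 3683 bases against 26924 over 19627 protein-coding genes, and 4 of the 10 (JUN, JUNB, JUND and IER2) have a single exon in their longest coding transcript, against 5.94% of all genes. Of the 10, JUNB lies at chr19:12791496-12793315, IER2 at chr19:13150415-13154908, KLF2 at chr19:16324817-16327874 and JUND at chr19:18279760-18281622, the last on the minus strand. FOSB (chr19:45467995-45475179) is on the same chromosome, and 359 kb separate the starts of JUNB and IER2. The others are JUN and ATF3 on chromosome 1, EGR1 on 5, FOSL1 on 11 and FOS on 14. The promoters of JUNB and IER2 are shown because these 2 genes moved most of the members between YAP-HA and control cells on the gel. They are RefSeq sequences of GRCh38.p14, 250 bases before to 50 bases after the start, both on the plus strand, at chr19:12791236-12791535 and chr19:13150161-13150460. Capitals mark TGACG, the half-site of the CREB and ATF factors, read on either strand, and TATAAA, the TATA box.
JUNB: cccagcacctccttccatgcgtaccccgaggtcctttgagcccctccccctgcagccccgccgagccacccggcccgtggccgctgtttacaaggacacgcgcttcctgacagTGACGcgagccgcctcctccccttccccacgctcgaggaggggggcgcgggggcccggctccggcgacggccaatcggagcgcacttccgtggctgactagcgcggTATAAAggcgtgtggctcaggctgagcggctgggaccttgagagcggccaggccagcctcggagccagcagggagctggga
IER2: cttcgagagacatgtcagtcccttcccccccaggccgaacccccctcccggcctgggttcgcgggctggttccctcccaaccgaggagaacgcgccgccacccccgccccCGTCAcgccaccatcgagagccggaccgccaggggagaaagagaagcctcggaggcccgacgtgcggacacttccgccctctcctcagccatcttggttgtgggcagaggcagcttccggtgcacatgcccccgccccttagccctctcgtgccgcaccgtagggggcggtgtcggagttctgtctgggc
RefSeq promoters were at hand for 9 of the 10 genes, with 2 starts for ATF3. TGACG on either strand was found in 7 of the 10 member promoters (JUN, JUNB, JUND, FOS, FOSB, EGR1 and IER2), against 24.6% of 35116 promoters of the same length. It begins 137 bases before the JUNB start and 140 before the IER2 start. The shares of all promoters were not matched for base composition. The JUNB and IER2 windows are 71% and 69.7% G and C, against a median of 58.7% over all promoters. The full TGACGTCA, which contains TGACG, occurred only in JUND of these (1.85% of all promoters), TATAAA in JUNB, FOS, FOSB and 1 start of ATF3 (11.5%), CCAAT in JUN, JUNB, JUND and ATF3 (34.6%), and the CArG box of the serum response factor only in EGR1 (1.29%). Neither TGANTCA (7.71% of all promoters) nor CATTCC, the core read by the TEAD partners of YAP (14.0%), was in any member promoter window on either strand. Sites more than 250 bases before a start lay outside these windows and were not searched for any motif.

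In ARPE-19 cells the members' levels spanned more than 2 orders of magnitude, and FOSL1 was the highest in every library. FOSL1, a FOS protein without a transactivation domain of its own and common in spreading and transformed cells, made up 79.8 to 84.1% of the summed TPM of the FOS family genes FOS, FOSB, FOSL1 and FOSL2 in YAP-HA cells, 86.4 to 87.8% in control cells on the gel and 76.5 to 79.8% in control cells on plastic. FOS itself stayed between 0.60 and 1.54 TPM and FOSB between 1.22 and 2.19 TPM over the 9 libraries, and EGR1 between 3.37 and 4.50 TPM. The cells had been kept for days on their substrate before harvest. JUND was at 69.6 to 112 TPM and JUN at 49.3 to 69.0 TPM.

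**Figure D1:**
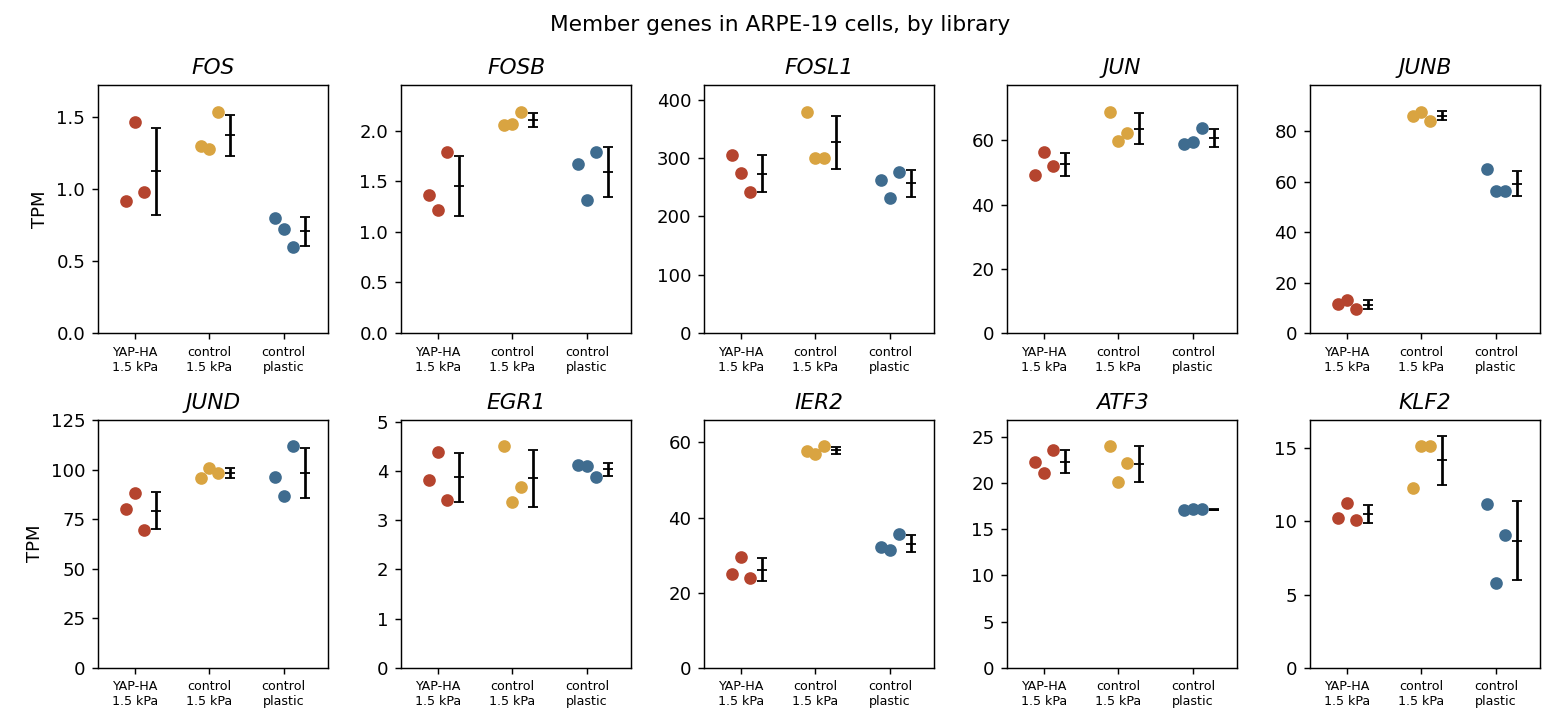
TPM (vertical axis, from 0) of each of the 10 members in the 9 ARPE-19 libraries, by group; points are libraries and the black bars are the mean and SD of 3. JUNB lies between 9.46 and 13.1 TPM in YAP-HA cells, far below both control groups, and IER2 is highest in control cells on the gel.

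Of the 10 members, JUNB fell most in YAP-HA cells on the gel. JUNB, a JUN protein that dimerizes with the FOS proteins and often opposes JUN, had 11.3, 13.1 and 9.46 TPM in YAP-HA cells, against 86.1, 87.8 and 84.2 TPM in control cells on the gel. The groups were far apart, with a spread of less than 2 TPM (SD) within each. The difference was −2.84 ± 0.10 on the log2(TPM + 1) scale (limma, SE, adjusted p = 2.06e-08), and only 56 of the 14606 genes tested lay lower. IER2 was next, with 25.01, 29.5 and 23.9 TPM in YAP-HA cells against 57.6, 57.0 and 59.0 TPM in control cells on the gel, a difference of −1.12 ± 0.08 (adjusted p = 4.31e-06). Both genes kept their call and direction under every alternative tried. JUN fell to 49.3, 56.4 and 51.9 TPM in YAP-HA cells, against 69.0, 59.7 and 62.2 TPM, a smaller difference of −0.27 ± 0.08 (adjusted p = 0.0131). JUND had 80.1, 88.2 and 69.6 TPM in YAP-HA cells, against 96.0, 101 and 98.3 TPM (−0.31 ± 0.10, adjusted p = 0.0275). The JUN call was lost without YAP-HA replicate 1 (adjusted p = 0.0549), and that of JUND without YAP-HA replicate 1 (0.0562) or 3 (0.104) or control gel replicate 2 (0.0738) or 3 (0.0661), and with no filter on low values (0.0757).

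In all, 4 of the 10 members fell and 0 rose with YAP-HA, where 23.9% of all genes tested fell and 24.5% rose. In either direction 48.4% of all genes were called, so calls are common in this contrast. The libraries did not overlap in 6 of the 10 members, against 56.8% of all genes. All 3 JUN genes were among the 4, and the JUNB share of the summed JUN, JUNB and JUND TPM was 7.22 to 8.28% in YAP-HA cells and 34.3 to 35.4% in control cells on the gel. FOS, EGR1 and ATF3 did not pass the test: their differences were −0.17 (95% interval −0.48 to 0.15), 0.01 (−0.26 to 0.27) and 0.02 (−0.16 to 0.19). FOSB (−0.35, adjusted p = 0.0522), FOSL1 (−0.25, adjusted p = 0.089) and KLF2 (−0.39, adjusted p = 0.102) had lower means with YAP-HA and missed the threshold. The group median was −0.29, against 0.01 over all genes.

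Genes near JUNB moved in both directions, more of them down than up. Of 33 tested genes within 500 kb of JUNB, 11 fell and 4 rose with YAP-HA on the gel, where 23.9% of all genes fell and 24.5% rose. Their median was −0.17, against 0.01 over all genes. IER2 is counted among the 33 and was itself the lowest of them.

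Against plastic, several members were higher in control cells on the gel. IER2 had 57.6, 57.0 and 59.0 TPM in control cells on the gel, against 32.1, 31.4 and 35.7 TPM on plastic, with no overlap and a difference of 0.79 ± 0.08 (adjusted p = 8.11e-05). JUNB had 86.1, 87.8 and 84.2 TPM on the gel, against 65.1, 56.2 and 56.4 TPM on plastic (0.53 ± 0.10, adjusted p = 0.00207). KLF2 had 12.2, 15.1 and 15.1 TPM on the gel, against 11.2, 5.81 and 9.05 TPM on plastic (0.68 ± 0.18, adjusted p = 0.0109). The plastic libraries of KLF2 were widely spread, and the highest of them lay close to the lowest on the gel. ATF3 had 24.0, 20.1 and 22.2 TPM on the gel, against 17.1, 17.2 and 17.1 TPM on plastic (0.35 ± 0.08, adjusted p = 0.00474).

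FOS and FOSL1 also rose, less securely. FOS had 1.30, 1.28 and 1.54 TPM on the gel, against 0.80, 0.72 and 0.60 TPM on plastic, a ratio of mean TPM of 1.94 and a difference of 0.48 ± 0.14 (adjusted p = 0.0182). FOSL1 had 379, 300 and 300 TPM on the gel, against 261, 232 and 277 TPM on plastic (0.34 ± 0.11, adjusted p = 0.0289). The FOS call was lost without plastic replicate 3 (adjusted p = 0.0595) or gel replicate 3 (0.0679), and the FOSL1 call without plastic replicate 1 (0.0519), plastic replicate 2 (0.104) or gel replicate 1 (0.0804). FOSB (0.26, adjusted p = 0.119), JUN (0.07, adjusted p = 0.493), JUND (0.01, adjusted p = 0.964) and EGR1 (−0.06, adjusted p = 0.707) did not pass.

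Together 6 of the 10 members rose on the gel and 0 fell, against 22.6% of all genes that rose and 27.9% that fell, 50.5% in either direction. In 7 of the 10 the gel and plastic libraries did not overlap, which was so for 57.9% of all genes. The median difference was 0.34 for the members and −0.04 for all genes tested. Control cells on the gel enter both this comparison and the one of YAP-HA, so the 2 are not independent.

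**Figure D2:**
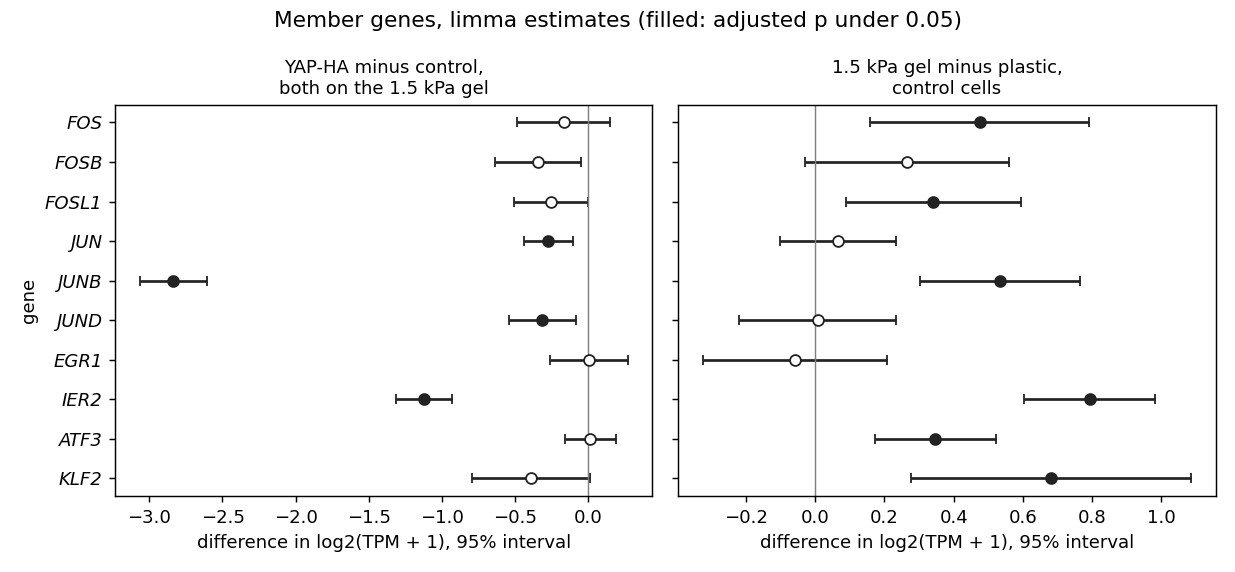
Difference in log2(TPM + 1) (horizontal axis) with its 95% limma interval for the 10 members, for YAP-HA minus control on the gel and for gel minus plastic; filled points passed the adjusted threshold. JUNB at −2.84 and IER2 at −1.12 lie below 0 with YAP-HA, while both lie above 0 on the gel, at 0.53 and 0.79.

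YAP-HA cells on the gel were also set against control cells on plastic, a contrast that differs in both substrate and transgene. JUNB was lower in YAP-HA cells than on plastic too (−2.30 ± 0.10, adjusted p = 2.05e-07), so its level fell below that of both control groups. IER2 averaged 26.2 ± 2.97 TPM in YAP-HA cells and 33.0 ± 2.29 TPM on plastic (SD, n = 3 each; −0.33 ± 0.08, adjusted p = 0.0135), and JUND was at −0.31 ± 0.10 (adjusted p = 0.0406). ATF3 alone rose, at 22.3, 21.1 and 23.6 TPM in YAP-HA cells against 17.1, 17.2 and 17.1 TPM on plastic (0.36 ± 0.08, adjusted p = 0.00577). This makes 3 members lower and 1 higher, against 20.2% and 14.2% of all genes. The libraries did not overlap in 5 members, against 49.8% of all genes, and 34.4% of all genes were called in either direction. Without plastic replicate 3 or YAP-HA replicate 1 only JUNB remained among the lower calls.

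Genes downstream and upstream of the members were read from lists of known genes. Their counts are set against the shares of all genes, 23.9% lower and 24.5% higher with YAP-HA on the gel, 27.9% lower and 22.6% higher on the gel against plastic, and 20.2% lower and 14.2% higher with YAP-HA against plastic. Of 16 tested genes known as AP-1 targets, 14 fell with YAP-HA on the gel and 1, EMP1, rose. Their median was −1.28. CXCL8, the neutrophil-attracting chemokine, averaged 14.0 ± 1.29 TPM in YAP-HA cells and 355 ± 51.4 TPM in control cells on the gel (−4.56 ± 0.11, adjusted p = 8.28e-10). The heme oxygenase gene HMOX1 averaged 14.1 ± 1.21 TPM in YAP-HA cells and 124 ± 8.04 TPM in control cells on the gel (−3.05 ± 0.09). The collagenase MMP1 averaged 0.437 ± 0.065 TPM in YAP-HA cells and 9.74 ± 0.70 TPM in control cells on the gel (−2.90 ± 0.13), and the cytokine IL6 4.97 ± 1.32 TPM in YAP-HA cells and 33.6 ± 5.40 TPM in control cells on the gel (−2.55 ± 0.16). On the gel, 9 of these 16 rose against plastic and 1, EMP1, fell, with a median of 0.45. MMP1 averaged 9.74 ± 0.70 TPM on the gel and 0.317 ± 0.150 TPM on plastic (3.03 ± 0.13, adjusted p = 2.93e-07). Many of these genes also answer to other factors, NF-kB among them, and which of them bound their promoters was not measured. YAP-HA cells against control cells on plastic gave 12 lower and 1 higher of 16, with a median of −0.60.

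**Figure D3:**
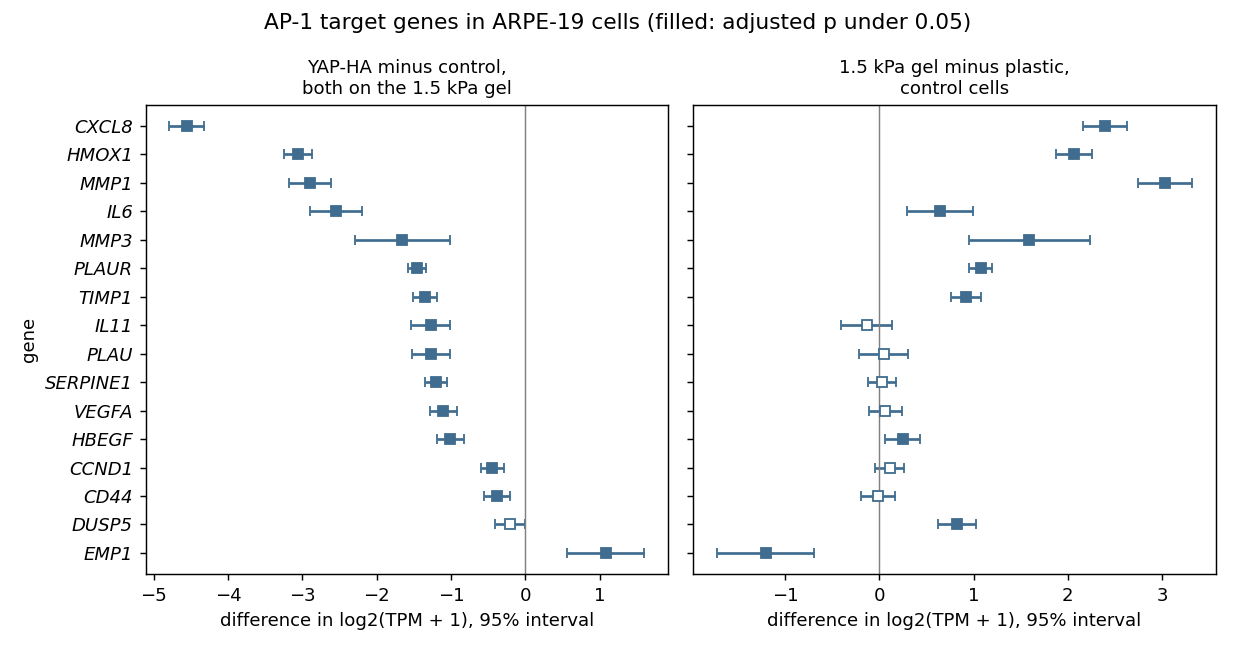
Difference in log2(TPM + 1) (horizontal axis) with its 95% limma interval for 16 AP-1 target genes, for YAP-HA minus control on the gel and for gel minus plastic; filled squares passed the adjusted threshold. CXCL8, HMOX1 and MMP1 have the lowest values with YAP-HA, −4.56, −3.05 and −2.90, and lie at 2.40, 2.07 and 3.03 on the gel.

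Of 13 other immediate early genes tested, 8 fell and 4 rose with YAP-HA on the gel. IER3, an anti-apoptotic early gene, averaged 14.8 ± 1.08 TPM in YAP-HA cells and 44.2 ± 1.14 TPM in control cells on the gel (−1.52 ± 0.08, adjusted p = 2.37e-07). CEBPB, a leucine zipper factor of inflammation, averaged 15.4 ± 2.38 TPM in YAP-HA cells and 37.7 ± 2.65 TPM in control cells on the gel (−1.25 ± 0.11). The zinc finger genes KLF4 and KLF10 fell by 1.01 and 0.73. On the gel against plastic, 3 of the 13 rose and 5 fell. CEBPB, KLF10 and KLF4 were the 3 that rose (0.75, 0.64 and 0.63), while FOSL2, the remaining FOS family gene, fell (−0.61).

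Of the 18 feedback genes, which encode phosphatases and Sprouty proteins that end kinase signalling and proteins that degrade or oppose early transcripts, 5 fell and 4 rose with YAP-HA, close to the shares of all genes. The MAP kinase phosphatase DUSP10 (−1.28) and the EGR corepressor NAB2 (−0.77) fell, and the JUN repressor JDP2 (1.07) and SPRY1 (1.00) rose. On the gel 5 rose and 5 fell, JDP2 falling most (−0.95). Of 20 upstream kinases and factors, 16 fell on the gel and 0 rose, with MRTFB, a coactivator of the serum response factor, at −1.32 and the kinase MAPK8 at −0.74. With YAP-HA 8 of these 20 rose and 2 fell. Of 12 heat shock genes, 9 rose and 1 fell on the gel, and HSPA8 averaged 1624 ± 43.3 TPM there against 816 ± 27.1 TPM on plastic (0.99 ± 0.05). Among 7 tested KLF2 targets, 3 rose and 3 fell on the gel, where KLF2 itself rose. Those that fell were CCN2 (−1.62), EDN1 (−1.10) and CAV1 (−0.71), and THBD (0.79) was among those that rose. The list was not split into genes that KLF2 raises and genes that it lowers, so the counts give no reading of KLF2. CCN2 was also among the known YAP targets.

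In old mouse RPE, no member passed the test between TRULI and control libraries. Of 9 members tested (Fosl1, at most 0.49 TPM, did not pass the filter) 0 rose and 0 fell in limma, and 8 of 15132 genes were called in all, 0.0529% of all genes (0.0198% higher and 0.033% lower). At an unadjusted p under 0.05 the counts were 2 members and 1810 genes. Jun had 43.3 and 48.4 TPM with TRULI, against 67.0 and 56.4 TPM in controls (−0.42, 95% interval −0.81 to −0.02, adjusted p = 0.397). Atf3 had 17.5 and 14.1 TPM with TRULI, against 22.4 and 40.8 TPM in controls (−0.91, −1.69 to −0.12, adjusted p = 0.37). Egr1 had 17.6 and 28.3 TPM with TRULI, against 15 and 11.8 TPM in controls (0.71, −0.00 to 1.42, adjusted p = 0.42). These groups did not overlap, nor did those of Fos, at 13.8 and 13.3 TPM with TRULI against 11.7 and 8.44 TPM in controls, or Jund, at 70.5 and 76.8 TPM with TRULI against 86.3 and 81.9 TPM in controls. Thus 5 of 9 members did not overlap, against 43.3% of all genes. Junb, the member with the largest change with YAP-HA in the human cells, had 20.1 and 25.6 TPM with TRULI and 26.5 and 13.1 TPM in controls (0.27, −0.61 to 1.14), so its groups overlapped. Klf2 (45.4 and 54.3 TPM with TRULI, 52.9 and 46.9 TPM in controls) and Ier2 (5.51 and 7.06 TPM with TRULI, 6.69 and 7.24 TPM in controls) overlapped between groups. Fosb had 1.39 and 5.96 TPM with TRULI and 3.98 and 0.98 TPM in controls, so the spread within each group exceeded the difference between them. None of the early gene, feedback, upstream, AP-1 target, heat shock or KLF2 target lists held a called gene (0 higher and 0 lower in limma).

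The bulk mouse samples were lysed without enzymatic dissociation, and held more than RPE. Summed over 7 macrophage markers the level was 923 to 1149 TPM with TRULI and 1802 to 1832 TPM in controls, over 5 neutrophil markers 11.7 to 19.3 TPM with TRULI and 59.1 to 71.4 TPM in controls, and over 8 T and NK cell markers 18.6 to 24.9 TPM with TRULI and 111 to 132 TPM in controls. Over 4 erythroid markers it was 821 to 885 TPM with TRULI and 2251 to 3052 TPM in controls. Other lists were higher with TRULI: 8 pericyte markers summed to 571 to 880 TPM with TRULI and 330 to 386 TPM in controls, 7 melanocyte markers to 4669 to 5073 TPM with TRULI and 3432 to 3674 TPM in controls, and the 6 RPE markers to 23039 to 23832 TPM with TRULI and 19607 to 19813 TPM in controls. The melanocyte list does not mark melanocytes alone, since the median RPE cell in scRNA-seq held 414 CPM of it at 24 months. The part of other cells in the members' values was not tested, and fewer cells of a type cannot be told apart from less RNA per cell.

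In scRNA-seq, RPE cells were taken as cells in which Mitf, Rlbp1, Rpe65, Trpm3, Ttr and Tyr gave at least 4% of the molecules counted (unique molecular identifiers, UMIs). This left 5419 of 15198 cells kept at 24 months and 1886 of 15667 at 3 months, with a median depth of 3887 and 10783 UMIs. The tissue had been digested with papain at 37 °C. With 1 library per age there is no test: values are UMIs of the summed cells scaled to the same total (CPM), intervals are exact Poisson ones covering counting error only, and a difference is read as past 1.5-fold or not. The median fibroblast-like cell held 0.611% RPE marker UMIs at 24 months and 0.286% at 3 months. The 2 libraries share 300 barcodes among the cells kept.

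The 10 members summed to 3808 CPM (3790 to 3826) in RPE cells at 24 months and 3661 CPM (3638 to 3684) at 3 months. Fos was at 1086 CPM at 24 months and 1034 CPM at 3 months, Egr1 at 662 and 652 CPM at 24 and 3 months, Junb at 587 and 660 CPM at 24 and 3 months, and Jun at 605 and 522 CPM at 24 and 3 months. Fosb was at 102 CPM at 24 months and 101 CPM at 3 months, Atf3 at 83.3 and 74.8 CPM at 24 and 3 months, and Klf2 at 98.9 and 113 CPM at 24 and 3 months. Jund stood at 457 CPM at 24 months and 331 CPM at 3 months, a log2 ratio of 0.47 (0.43 to 0.50), and Ier2 at 127 CPM at 24 months and 173 CPM at 3 months, a log2 ratio of −0.44 (−0.50 to −0.39). Neither reached 1.5-fold. Past that fold there was 1 of 10 members, Fosl1, higher at 24 months from 41 UMIs at 24 months and 10 at 3 months (log2 ratio 1.28, 0.26 to 2.45), and 0 lower, against 8.52% of 14759 genes higher and 5.01% lower.

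Most of these ratios depended on how the RPE cells were defined. With the gate at 2% the sum of the members had a log2 ratio of −0.12 and at 6% of 0.21, and after thinning each cell to 1000 UMIs it was −0.09. Fos, Jun and Egr1 turned to the other sign under the 2% gate and thinning, and Fosb and Atf3 under the 2% gate. Jund stayed higher at 24 months in all 7 alternatives (0.32 to 0.57). Ier2 (−0.55 to −0.25), Junb (−0.22 to −0.07) and Klf2 (−0.29 to −0.02) stayed lower. Fosl1 turned to −0.47 after thinning, so its direction rests on a handful of molecules. The ratios also differed with cell depth. At 24 and 3 months the member sum was 5091 and 5821 CPM in RPE cells under 2000 UMIs. It was 3896 and 5380 CPM at 2000 to 5000 UMIs, and 4356 and 5969 CPM at 5000 to 10000. Above 10000 UMIs it was 3630 and 3437 CPM. Fos and Jun followed the same order, while Jund was higher at 24 months in every bin.

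The members were far lower in RPE cells than in the stromal cells of the same libraries. Cells outside the gate were clustered without the members and named by markers. In fibroblast-like cells the 10 members summed to 34390 CPM at 24 months and 47690 CPM at 3 months, 9.03 and 13.03 times the RPE level. The sums at 24 and 3 months were 30948 and 37477 CPM in endothelial-like, 31878 and 35674 CPM in pericyte-like, and 13287 and 22466 CPM in macrophage-like cells. They were 13049 and 13822 CPM in T and NK-like and 9754 and 13035 CPM in dendritic-like cells. Among 9 classes of at least 50 cells, RPE had the lowest value for 6 members at 24 months and for 9 of 10 at 3 months, with Fosl1 the exception at 3 months. The 4 others at 24 months were Jun, Egr1, Klf2 and Fosl1, for which dendritic-like, B-like or melanocyte-like cells had lower values, each within counting error of RPE. Of the 6, only Fos was apart from the next class, since melanocyte-like cells overlapped RPE within counting error for Fosb, Junb, Jund, Ier2 and Atf3. Melanocyte-like cells were few at 24 months, 80 against 1682 at 3 months.

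The order of cell classes differed between members. Among classes of at least 50 cells, Fos was highest in fibroblast-like cells at 24 months (7668 CPM), ahead of pericyte-like (6623 CPM) and endothelial-like cells (6533 CPM), which did not differ beyond counting error. Schwann-like cells were higher still, with 17570 CPM of Fos in the 38 cells at 24 months, too few for the ranking, and 17148 CPM in the 98 cells at 3 months (log2 ratio 0.04, −0.05 to 0.12). At 3 months fibroblast-like cells (10977 CPM) came next. Junb and Egr1 were highest in fibroblast-like cells at both ages, Junb at 9730 and 12133 CPM at 24 and 3 months and Egr1 at 6844 and 9585 CPM at 24 and 3 months. Klf2, an endothelial flow-response factor, was highest in endothelial-like cells, at 3957 CPM at 24 months and 3478 CPM at 3 months. Of the classes ranked, Atf3 was highest in pericyte-like cells at 24 months (2741 CPM, against 3106 CPM in the 38 Schwann-like cells) and in endothelial-like cells at 3 months (2555 CPM), where pericyte-like cells (2466 CPM) lay within the counting error.

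**Figure D4:**
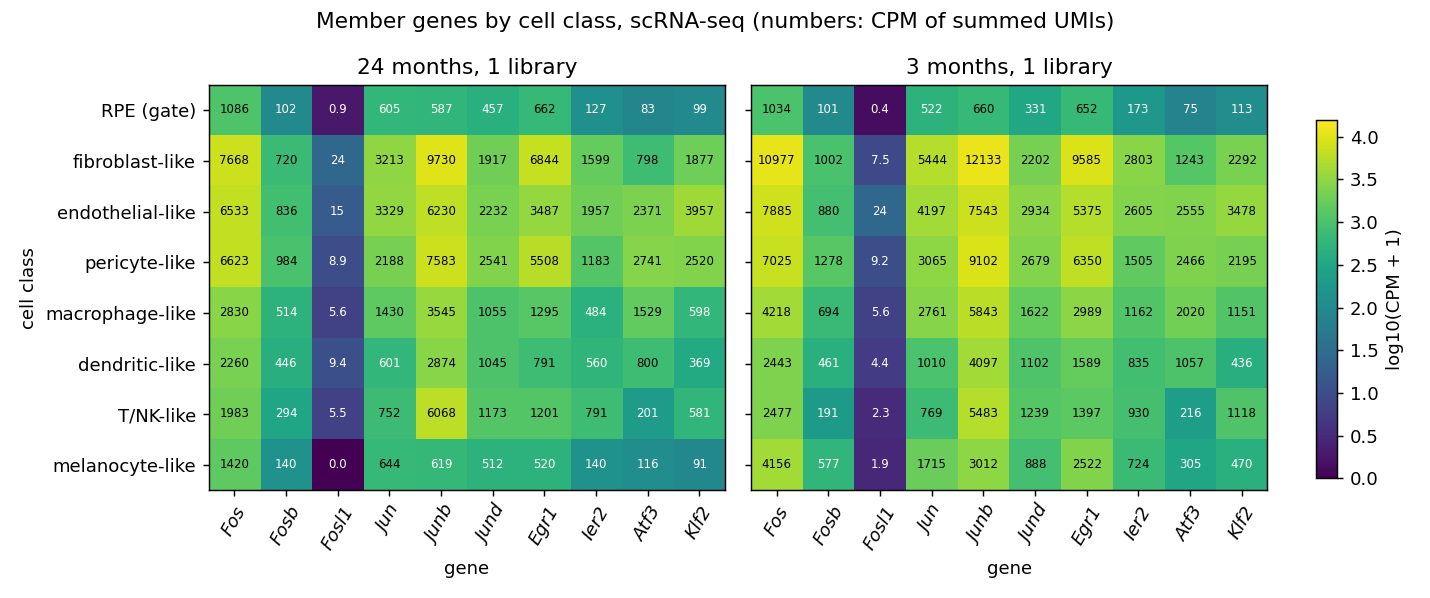
CPM of each member (columns) in 8 cell classes (rows), at 24 months and at 3 months, 1 library each; the colour is log10(CPM + 1) and the number is the CPM. The RPE row is darker than the fibroblast-like row for every member, and the Klf2 column is brightest in endothelial-like cells at both ages.

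In fibroblast-like cells 9 of the 10 members were lower at 24 months, from −0.81 for Ier2 and −0.76 for Jun to −0.20 for Jund on the log2 scale, and Fos was at 7668 CPM at 24 months and 10977 CPM at 3 months (−0.52). Past 1.5-fold there were 3 members lower, Ier2, Jun and Atf3 (−0.64), against 10.3% of 14976 genes. Fosl1 was the 1 higher, at 24.5 CPM at 24 months and 7.51 CPM at 3 months (1.70, 1.51 to 1.90), where 9.22% of genes were higher. Different clusters held most of the class at the 2 ages: 4442 of 5443 cells at 24 months lay in a cluster led by Ccl11 and Serpina3n, and 5199 of 8621 at 3 months in one led by Alkal2 and Coch. In each of the 4 fibroblast-like clusters the member sum was lower at 24 months, for example 36677 CPM at 24 months and 43519 CPM at 3 months in the first and 45374 CPM at 24 months and 58261 CPM at 3 months in the second. With 1 library per age, age and library preparation cannot be told apart.

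In the other classes the counts of members past the fold differed. In macrophage-like cells 6 members (Jun, Junb, Jund, Egr1, Ier2 and Klf2) were past 1.5-fold lower at 24 months and 0 higher, against 18.3% of genes lower and 7.69% higher. Egr1 was at 1295 CPM at 24 months and 2989 CPM at 3 months there (−1.21, −1.27 to −1.15). The leading genes of this class included the keratin genes Krt15 and Krt5 beside C1qa, C1qb and C1qc. The part of other cells' RNA in its values was not tested. In endothelial-like cells Egr1 (−0.62) and the sparse Fosl1 (−0.65, −1.54 to 0.15) were past the fold, where 12.8% of genes were lower and 8.16% higher. In pericyte-like cells 0 of 10 members were past it, where 12.3% of genes were lower and 7.4% higher. In T and NK-like cells Fosb (0.63) and Fosl1 (1.27, −1.35 to 6.64) were higher and Klf2 (−0.94) lower, where 17.4% of genes were higher and 15.3% lower. The T and NK-like class was a different mix at each age: the cluster led by Ccl5 with Cd8 genes held 906 of 1302 cells at 24 months and 46 of 101 at 3 months, that led by granzyme genes 192 at 24 months and 48 at 3 months, and that led by Il17a 204 at 24 months and 7 at 3 months.

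The summed members were lower in cells with a larger RPE marker share, up to 12% of UMIs. Just outside the gate, at 3 to 4% of UMIs, the sum was 11335 CPM at 24 months (870 cells) and 13966 CPM at 3 months (678 cells), and just inside, at 4 to 5%, 7693 CPM (976 cells) at 24 months and 11326 CPM (396 cells) at 3 months. At 12% or more it was 2042 CPM (1987 to 2098, 208 cells) at 24 months and 2191 CPM (2109 to 2275, 82 cells) at 3 months. At 24 months this was below the 2847 CPM at 8 to 12%, while at 3 months the 2202 CPM (2178 to 2226) at 8 to 12% overlapped it, and Fos was at 707 CPM at 8 to 12% and 891 CPM at 12% or more. Summed fibroblast markers fell over the same bins, to 104 CPM at 24 months and 50.7 CPM at 3 months in the last bin, against 13965 CPM at 24 months and 15348 CPM at 3 months in fibroblast-like cells.

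The members differed in how low they lay there. At 12% or more, fibroblast markers were at 0.744% of their fibroblast-like level at 24 months and 0.331% at 3 months, and Klf2 was at 0.676% and 0.211% of its own. At 24 and 3 months Junb was at 1.77% and 1.31%, Egr1 at 4.91% and 3.70%, and Jun at 11.2% and 7.17% of their fibroblast-like levels. Jund was at 14.97% at 24 months and 10.7% at 3 months. Fos was at 9.64% of its fibroblast-like level at 24 months and 8.11% at 3 months, with 739 CPM at 24 months and 891 CPM at 3 months. Fosb was at 6.61% at 24 months and 6.19% at 3 months, Atf3 at 4.52% and 1.10%, and Ier2 at 3.25% and 2.87%. Fosl1 was at 0 in this bin at both ages. All members but Klf2 and Fosl1 thus lay above the fibroblast markers on this scale, Junb by the least at 24 months. The part of fibroblast RNA in the members' levels near the gate was not tested.

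**Figure D5:**
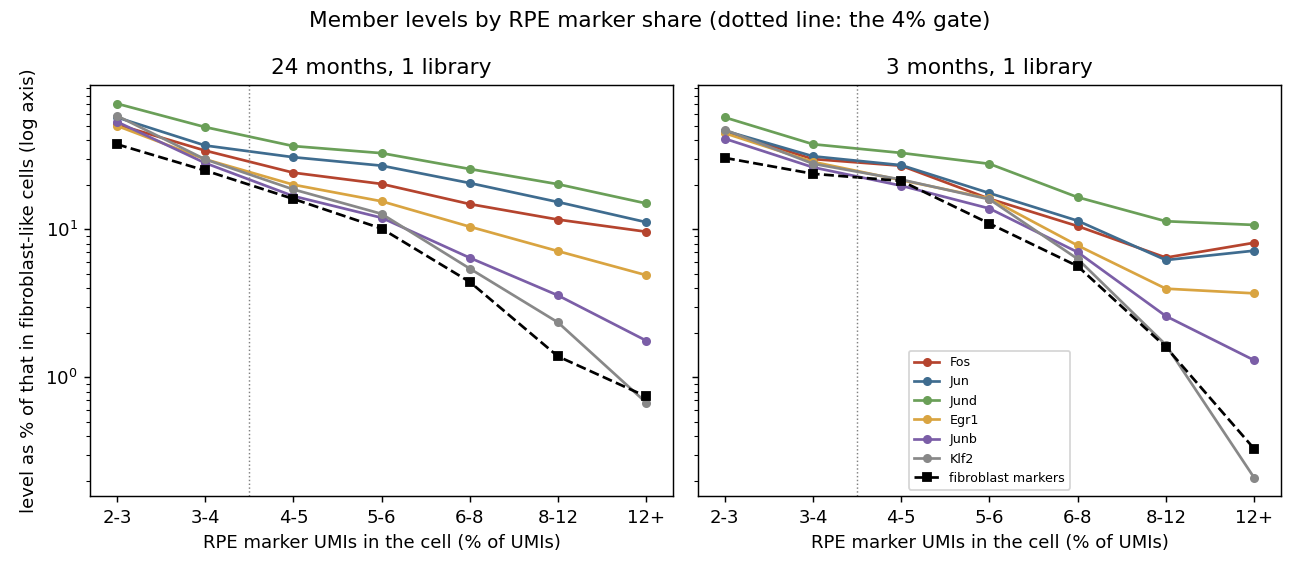
Level of 6 members and of the summed fibroblast markers as a percentage of their level in fibroblast-like cells of the same library (vertical log axis), by RPE marker share of the cell (horizontal axis), at 24 and 3 months. Klf2 follows the fibroblast markers down to below 1% in the last bin, while Fos, Jun and Jund stay between 7.17% and 14.97%.

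In cells thinned to 1000 UMIs, 53.1% (exact binomial interval 51.6 to 54.6) of 4120 RPE cells at 24 months and 46.9% (44.4 to 49.5) of 1483 at 3 months held a Fos UMI, against 95.9% and 98.2% of fibroblast-like cells. Unthinned, the RPE shares were 77.1% and 78.4%. RPE cells under 1000 UMIs were left out of the thinned shares. The Fos share and the thinned Fos CPM ran in opposite directions between the ages, so no order was read from them. For Jund the shares were 34.4% (32.9 to 35.9) at 24 months and 25.4% (23.2 to 27.7) at 3 months, in the direction of its CPM, and for Ier2 11.8% at 24 months and 13.96% at 3 months. No cell class is known to lack Fos, Jund or Ier2, so no class gives their background share.

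Members were found together in the same RPE cells, as they were in fibroblast-like cells. Among thinned RPE cells with a Fos UMI, 53.3% at 24 months and 54.2% at 3 months held an Egr1 UMI, against 24.6% and 18.8% of cells without Fos. For Junb the shares at 24 and 3 months were 41.8% and 44.4% with Fos, and 18.8% and 14.2% without. In fibroblast-like cells the Egr1 shares at 24 and 3 months were 96.2% and 98.0% with Fos, and 75.1% and 61.1% without. Of RPE cells, 17.8% at 24 months and 29.4% at 3 months held none of the 10 members, and 6.58% at 24 months and 9.04% at 3 months held 6 or more. The 5th and 95th percentiles of member UMIs per 1000 were 0 and 13 at 24 months, and 0 and 17 at 3 months. These are shares of cells of 1 library each, at equal depth, without a test between ages. Cells over the doublet threshold were kept. Without them the member sum in RPE cells was 3267 CPM at 24 months and 2826 CPM at 3 months, against 3808 and 3661 CPM with them. The part of doublets and of other cells' RNA in the shared detection was not tested.

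Across 18 combinations of cell class and library, the genes whose log2(CPM + 1) was most like that of Fos among 12028 were Jun (r = 0.968), Egr1 (0.963), Golga3 (0.944), Socs3 (0.941) and Fosb (0.928). The points share 2 libraries. The other members lay further down. Counting Fos itself, 34 genes had a higher r than Ier2 (0.887), 145 than Jund (0.843) and 158 than Junb (0.840). For Atf3 (0.825) it was 200 genes and for Klf2 (0.818) 225. Of the members Fosl1 (0.436) was least alike. Among the other early, feedback and heat shock genes, the highest levels in RPE cells were those of the heat shock genes Hsp90aa1, at 1913 CPM at 24 months and 1937 CPM at 3 months, and Hspa8, at 1594 and 1697 CPM at 24 and 3 months. The early gene Cebpd was at 370 and 335 CPM and the RNA-decay factor Zfp36 at 315 and 369 CPM at 24 and 3 months. None of these 4 reached 1.5-fold between the ages. Past 1.5-fold at 24 months there were 1 of 18 other immediate early genes higher and 0 lower, 2 of 18 feedback genes higher and 0 lower, 0 of 12 heat shock genes higher and 2 lower, and 0 of 20 upstream genes, where 8.52% of all genes were higher and 5.01% lower. The 2 lower heat shock genes were Hspa1a (33.3 and 58.1 CPM at 24 and 3 months) and Hspa1b (22.1 and 44.2 CPM). Of 10 KLF2 targets, a list not split by the direction in which KLF2 acts, 3 were higher and 3 lower. Of 15 AP-1 targets 7 were higher and 1 lower, with a median log2 ratio of 0.51. The stromelysin gene Mmp3 was at 20.6 CPM at 24 months and 0.92 CPM at 3 months (log2 ratio 4.48, 3.90 to 5.13), and the metalloproteinase inhibitor gene Timp1 at 13.8 CPM at 24 months and 2.68 CPM at 3 months (2.36, 2.004 to 2.74). Markers of other cells moved both ways in the same RPE cells. Summed fibroblast markers were at 571 CPM at 24 months and 669 CPM at 3 months. Melanocyte markers were at 547 and 1318 CPM at 24 and 3 months. The median RPE cell held 414 and 1422 CPM of them, so this list, which includes pigment genes, does not mark other cells alone. Macrophage markers were higher at 24 months, at 231 CPM against 157 CPM at 3 months. So were T and NK cell markers (26.6 and 1.30 CPM) and neutrophil markers (38.0 and 0.153 CPM). The part of other cells' RNA in the AP-1 target values was not tested.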

How the data were processed

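TPM tables of ARPE-19 and mouse RPE were used as deposited by the authors, who per the labels used TruSeq stranded mRNA libraries, STAR (2.7.3a and 2.7.10b) and RSEM, with the builds GRCh38, GRCm39 and mm10 named in the submitters' processing notes. Which version made which table, and whether counting used strand, is not given in the sources used here. Deposited scRNA-seq UMI counts came from 10x 5′ libraries and Cell Ranger 6.0.1. From log2(TPM + 1) of genes with TPM ≥ 1 in at least 3 of 9 (human) or 2 of 4 (mouse) libraries, limma 3.58.1 with trend was fitted, all 9 human libraries in 1 fit. Cells were kept, 30865 of 34298, if 200 or more genes were detected, mitochondrial transcripts made up no more than 10% and hemoglobin transcripts were absent. Cells outside the RPE gate were clustered with Seurat 5.3.0 (2000 features without the early genes, 25 components, resolution 0.4). Clusters were named by a marker score of 0.5 or more with at least 3 detected markers. A cluster stayed unnamed if another class had more markers among its 10 leading genes, or if it was shallow and had none of its own there. Among those left unnamed was a cluster of 763 cells at 24 months and 1026 at 3 months, whose best score was for melanocytes (0.552). These rules were set after seeing the clusters. Doublets were scored with Scrublet in Scanpy 1.11.5 and kept, with their removal as an alternative. Named genes were the 10 members, up to 4 members of each list with the largest called change, the list genes with the highest CPM in RPE cells and the 5 genes most like Fos. EMP1 and, in RPE cells, Mmp3, Timp1, Hspa1a and Hspa1b were named after their values were seen, as was ANKRD1. The members and lists were chosen with earlier results of these data known. The tests were checked on simulated data. Library depth behind the TPM values is unknown. The UMI totals of the cells kept were 82897938 at 24 months and 89817876 at 3 months.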

Additional observations from a re-analysis of the deposited data

Results flagged for a closer look

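Fos, Jun, Jund and Atf3 moved in opposite directions with age in RPE and in fibroblast-like cells by counting intervals, and the difference itself was not tested, since each age has 1 library. The log2 ratios of 24 over 3 months in RPE cells were 0.07 for Fos, 0.21 for Jun, 0.47 for Jund and 0.16 for Atf3, and in fibroblast-like cells −0.52, −0.76, −0.20 and −0.64. The sum of the 10 members was at 0.06 in RPE cells and −0.47 in fibroblast-like cells. Of the RPE values, Jund alone kept its sign in all 7 alternatives. In RPE cells under 10000 UMIs, Fos, Jun and the member sum were lower at 24 months in each depth bin. They were higher only in deeper cells. Groups of 2 or 3 libraries were not searched for single outlying libraries.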

How the results depend on the processing

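Over the ARPE-19 contrasts JUNB and IER2 kept direction and call against control cells on the gel and, for gel against plastic, under all alternatives run. Leaving out 1 library at a time, the count of members higher on the gel was 5 to 6, of members lower with YAP-HA on the gel 3 to 4 and of members lower with YAP-HA against plastic 1 to 4. Members with differences near 0 changed sign over these fits: JUND from −0.078 to 0.10 and EGR1 from −0.15 to 0.013 on the gel against plastic, EGR1 from −0.068 to 0.10 and ATF3 from −0.047 to 0.074 with YAP-HA on the gel, and EGR1 from −0.13 to 0.018 with YAP-HA against plastic, where median-of-ratios scaling gave 0.0076. In mouse RPE, Klf2 ran from −0.13 to 0.12, Fosb from −0.39 to 1.15, Junb from −0.21 to 0.75 and Ier2 from −0.29 to 0.018. The counts of all genes called for TRULI, 3 higher and 5 lower, became 0 and 0 with a pseudocount of 0.1, without the filter, without the trend or with the replicate block, and ran from 0 to 2 higher and 0 to 12 lower without single libraries; a group left with 1 library is assumed to vary like the other. Same-numbered libraries did not deviate together (correlations of −0.12 to 0.09 in ARPE-19 and 0.06 in mouse RPE). With 2 or 3 libraries a group, these correlations cannot settle whether the numbers pair the libraries. With the replicate block, 6 members rose on the gel, 3 fell with YAP-HA on the gel and 2 fell with YAP-HA against plastic. JUND was no longer called in either YAP-HA contrast (adjusted p = 0.0543 and 0.0761). In RPE cells the log2 ratio of the member sum was 0.083 at no more than 5% mitochondrial UMIs, 0.21 without cells over the doublet threshold, −0.12 at a 2% gate, 0.21 at a 6% gate and −0.090 after thinning, and that of Fosl1 −0.47 after thinning; the cause was not tested. RPE over fibroblast-like cells, −3.17 at 24 months and −3.70 at 3 months, became −3.17 and −3.72 with the mitochondrial limit, −3.40 and −4.08 without doublets and −3.08 and −3.49 after thinning. Keeping cells with hemoglobin was not run for the other classes. Fosl1, with 41 and 10 UMIs in RPE cells, is limited by depth.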
